A study of Drosophila melanogaster with 27 samples.

Results

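The 92 Drosophila genes whose symbols start with RpL or RpS, the genes of the cytoplasmic ribosomal proteins, were selected by symbol from the 13968 protein-coding genes of the annotation. The rule uses no measured value, but the set was chosen with earlier results of these data known. The genes of mitochondrial ribosomal proteins, which start with mRpL or mRpS, were not members. Of the 92 genes, 54 belonged to the large subunit by name and 38 to the small subunit. Minor paralogs made 9 of them (RpL10Aa, RpL22-like, RpL37-2, RpS5b, RpS10a, RpS15Ab, RpS19b, RpS28a and RpS28-like), and 3 are relatives of the ribosomal proteins that act in ribosome assembly (RpL7-like, RpL24-like and RpLP0-like). The other 13876 protein-coding genes served as the background. Each promoter was taken from 1000 bp upstream to 500 bp downstream of the gene start.

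The data are CUT&RUN profiles of third-instar larval brains, in which an antibody-tethered nuclease releases the DNA around its target. All brains were brat-null (brat11/Df(2L)Exel8040), a background in which type II neuroblasts, the neural stem cells of the fly brain, accumulate. Control brains carried fruC::myc, a tagged allele of the zinc-finger transcription factor FruC, and were profiled with antibodies to Myc (FruC-Myc), FruCOM (the region common to Fru proteins), Caf-1, Trl, Su(z)12, Su(H) and H3K9me3. H3K4me3, H3K27ac and H3K27me3 were profiled in fruC-null brains (brat11/Df(2L)Exel8040; fruC-DelC/fruAj96U3) and in control brains, with 2 samples for each antibody and genotype. Whole brains were extracted, so other brain cells contributed chromatin, and 1 IgG sample was not analysed here.

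The ribosome is built from ribosomal RNAs and about the same set of proteins in every cell, and ribosomal protein genes are among the most strongly and most evenly transcribed genes of dividing cells. Loss of 1 copy of many of these genes in flies gives the Minute phenotype of slow development and thin bristles. Their promoters are known for a polypyrimidine start, the TCT initiator, which takes the place of the usual initiator, and many also carry the DNA replication-related element (DRE). Neuroblasts grow again after every asymmetric division and depend on ribosome production.

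Starts with a TCT initiator are shown for RpS19a, RpL3 and RpL14, which had strong FruC-Myc peaks, and for the germline paralog RpS5b, which had no such peak. They are examples of the element and not of all strong peaks, since 4 of the 9 members with a FruC-Myc −log10 Q over 100 in replicate 1 had it at the gene start. The 30 bases around each annotated start are given from the release 6 genome (RefSeq copy), 5′ to 3′ on the gene's strand. They lie at chrX:16637879-16637908 (RpS19a, plus strand), chr3R:11221879-11221908 (RpL3, plus strand), chr3L:8600991-8601020 (RpL14, plus strand) and chr3R:14901549-14901578 (RpS5b, minus strand). Capitals mark the TCT initiator, searched as CTTTT or CTTTC with its C within 5 bp of the start, on the gene's own strand.
RpS19a: ccaacttcacgcgccttgttCTTTTttccg
RpL3: cggaagtcggaatcgtttCTTTTccgtttt
RpL14: ctgtcaaaaaagttCTTTCcttctctttct
RpS5b: agctccttttaccgtttCTTTTtcatcctc

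The DRE, TATCGATA, was likewise found in 4 of these 9 promoters, and the 3 that hold it in the 100 bases before the start are shown. RpL36A, not shown, holds it just downstream of the start. RpL10Aa is added as a minor paralog with neither the word nor a FruC-Myc peak. The 100 bases before each start lie at chrX:15139368-15139467 (RpL37-1, minus strand), chrX:19597931-19598030 (RpS10b, plus strand), chr3R:20850416-20850515 (RpS30, plus strand) and chr3R:15037266-15037365 (RpL10Aa, plus strand). None of these stretches overlapped an annotated exon (0 exonic bases each). Capitals mark TATCGATA, which reads the same on both strands.
RpL37-1: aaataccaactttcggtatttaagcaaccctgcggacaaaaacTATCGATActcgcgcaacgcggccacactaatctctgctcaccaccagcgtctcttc
RpS10b: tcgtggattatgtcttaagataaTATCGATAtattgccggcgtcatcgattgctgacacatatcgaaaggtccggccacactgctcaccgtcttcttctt
RpS30: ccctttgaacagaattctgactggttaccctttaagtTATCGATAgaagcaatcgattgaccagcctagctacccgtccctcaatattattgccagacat
RpL10Aa: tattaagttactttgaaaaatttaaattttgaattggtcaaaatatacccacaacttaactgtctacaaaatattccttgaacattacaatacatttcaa

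Over all members, the TCT initiator was found at the gene start of 31 of 92 promoters (33.7%, 95% Wilson interval 24.9 to 43.8%), against 3.26% of the other promoters. When the start of any annotated transcript was allowed, 57 members had it (62.0%), against 4.75% of the other genes. The DRE was in 28 member promoters (30.4%, 22.0 to 40.5%) between 250 bp before and 50 bp after the start, against 9.22% of the other promoters in the same window. GGTCACAC, the Motif 1 word bound by the factor M1BP, was in 14 (15.2%) on either strand, against 7.65% of the others. GAGAG, a word of the GAGA factor Trl, was in 16 members (17.4%), against 29.9% of the others, and the E-box CAGCTG was in 9 (9.78%), against 17.7%. In the mitochondrial ribosomal protein genes this order was different, with the E-box in 40 of 73 promoters (54.8%) and the TCT initiator at the gene start of 3 (4.11%). The DRE was in 20.5% of these promoters and in 26.9% of the promoters of translation initiation and elongation factors. No word searched contains another, each match is a description of sequence only, and intervals here and below cover counting error only. FruC-Myc peaks were found at most members with and without each of these elements. A replicate 1 peak was found at 29 of 31 members with the TCT initiator at the gene start and 56 of 61 without it, with a median −log10 Q-value of 35.4 and 41.1 when a missing peak counted as 0. It was found at 26 of 28 members with the DRE and 59 of 64 without it, with medians of 41.8 and 33.4. RpL34a and RpS15Ab held the DRE and had no FruC-Myc peak. No test of the members as a group was made, since genes of 1 set are not independent replicates.

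**Figure D1:**
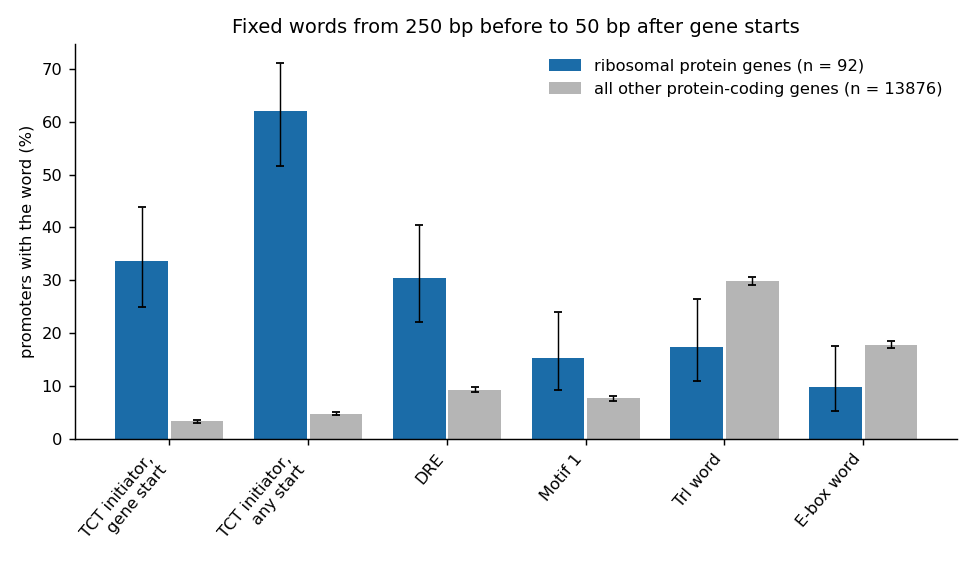
Share of promoters (y axis, percent) that hold each fixed word (x axis) in 92 ribosomal protein genes (blue) and 13876 other protein-coding genes (grey); error bars are 95% Wilson intervals. The TCT initiator stands at 33.7% in the ribosomal protein genes, against 3.26% in the others, while the Trl and E-box words are less frequent in the ribosomal protein genes.

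FruC-Myc peaks were found at nearly every ribosomal protein promoter in replicate 1 and at a smaller part of them in replicate 2. In replicate 1, 85 of 92 member promoters had a peak (92.4%, 85.1 to 96.3%), against 47.7% of the other promoters. In replicate 2, 25 member promoters had one (27.2%, 19.1 to 37.0%), against 15.5% of the others. All 25 were among the 85, so that the share with a peak in either replicate was also 92.4%, against 47.8%, and the share with a peak in both was 27.2%, against 15.5%. The replicates differed in size throughout the genome, with 15563 peaks in replicate 1 and 5174 in replicate 2. Sequencing depth is unknown from peak lists.

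The significance of these peaks was moderate. Where a member had a replicate 1 peak, the −log10 Q-value that MACS2 gave its strongest peak had a median of 42.5 and ran from 4.25 to 175, against a median of 30.0 and a maximum of 982 in the other genes. In replicate 2 the median was 8.11, between 3.51 and 15.7, against a median of 9.37 in the others. The fold enrichment over local background had a median of 8.06 in replicate 1 (2.69 to 20.7), against 6.84 in the others, and 7.13 in replicate 2, against 7.42. Members with a peak in both replicates had a median of 61.7 in replicate 1, and the 60 members with a peak in replicate 1 only had a median of 32.0. Across the 25 promoters with both peaks the Q-values of the replicates were related with Spearman's rho of 0.56 and Pearson's r of 0.50, as a description, since the points share both samples.

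The study itself used only FruC peaks with a −log10 Q over 100. That value was passed by 9 of 92 promoters in replicate 1 (9.78%), against 4.55% of the other promoters, and no member passed it in replicate 2. The highest was RpS19a, whose protein sits in the head of the small subunit, with 175 in replicate 1 and 12.5 in replicate 2. It was surpassed by 117 promoters of other genes. RpL3, a protein close to the peptidyl transferase centre, had 154 in replicate 1 and no peak in replicate 2, the only one of the 9 without a second peak. RpLP2, of the acidic stalk that recruits elongation factors, had 145 and 7.75, and RpL38 had 141 and 9.37.

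The other 5 were RpL36A (132 and 13.4), RpL14 (130 and 13.1), RpL37-1 (114 and 10.6), RpS10b (113 and 9.37) and RpS30 (108 and 6.67), in replicates 1 and 2. RpS30 is made as a fusion to a ubiquitin-like protein, and RpS10 lies near the mRNA entry of the small subunit. The largest value below the threshold was 95.7, at RpS28a. In replicate 2 the order changed, and the highest were RpLP0-like (15.7), RpL36A (13.4), RpS28a (13.4) and RpL14 (13.1). RpLP0-like, whose yeast relative Mrt4 acts in assembly of the large subunit, had 61.7 in replicate 1.

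**Figure D2:**
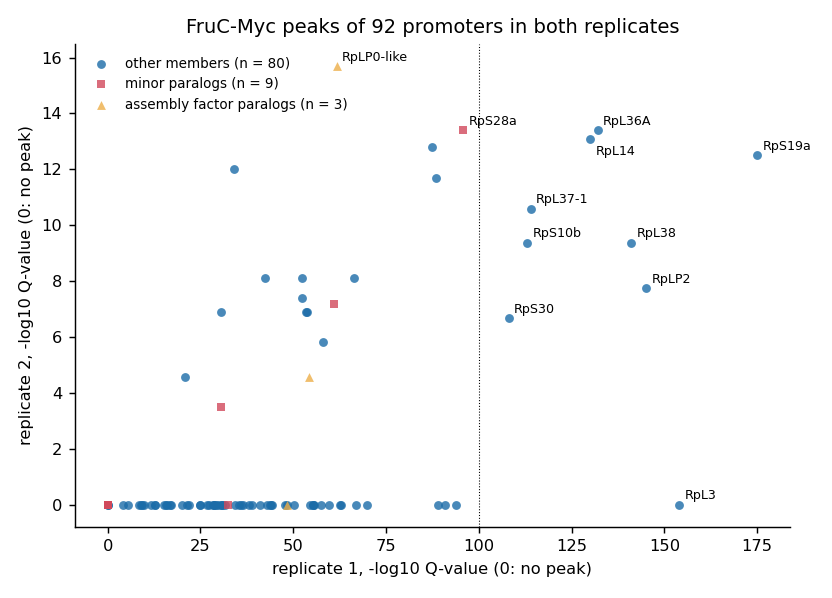
−log10 Q-value of the strongest FruC-Myc peak at each of 92 ribosomal protein promoters in replicate 1 (x axis) and replicate 2 (y axis), with 0 for no peak; circles are the 80 other members, squares the 9 minor paralogs and triangles the 3 assembly factor paralogs. The dotted line stands at 100, and 8 of the 9 genes to its right also have a peak in replicate 2, RpL3 being the exception.

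No FruC-Myc peak was found in either replicate at 7 members, and 5 of them were minor paralogs. These were RpL10Aa, RpL22-like, RpL37-2, RpS5b and RpS15Ab, so that 4 of the 9 minor paralogs had a peak (44.4%), a share close to the 47.7% of the other genes. The 4 with a peak were RpS28a (95.7 in replicate 1), RpS19b (61.1), RpS28-like (32.5) and RpS10a (30.6). In 3 of these 4 the strongest summit was nearer to the start of another gene, Axn for RpS28a, CG5854 for RpS19b and numb for RpS28-like. Several of these paralogs are known for expression in the germline, where RpS5b, RpL22-like and RpS19b have been described.

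The remaining members without a peak were RpL34a and RpS14b. RpL34a has a paralog, RpL34b, whose promoter had a replicate 1 peak of 38.8. RpS14b lies directly behind RpS14a, its near-identical tandem copy, which had a peak of 30.9. Whether reads from such copies were placed at the right one was not tested, so the values of this pair are uncertain. Leaving out the 9 minor and 3 assembly factor paralogs, 78 of 80 members had a FruC-Myc peak (97.5%). The 3 assembly factor paralogs all had one, but their strongest replicate 1 summit was nearest to the start of another gene. These were JhI-21 for RpL7-like, CG5276 for RpL24-like and 14-3-3zeta for RpLP0-like.

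**Figure D3:**
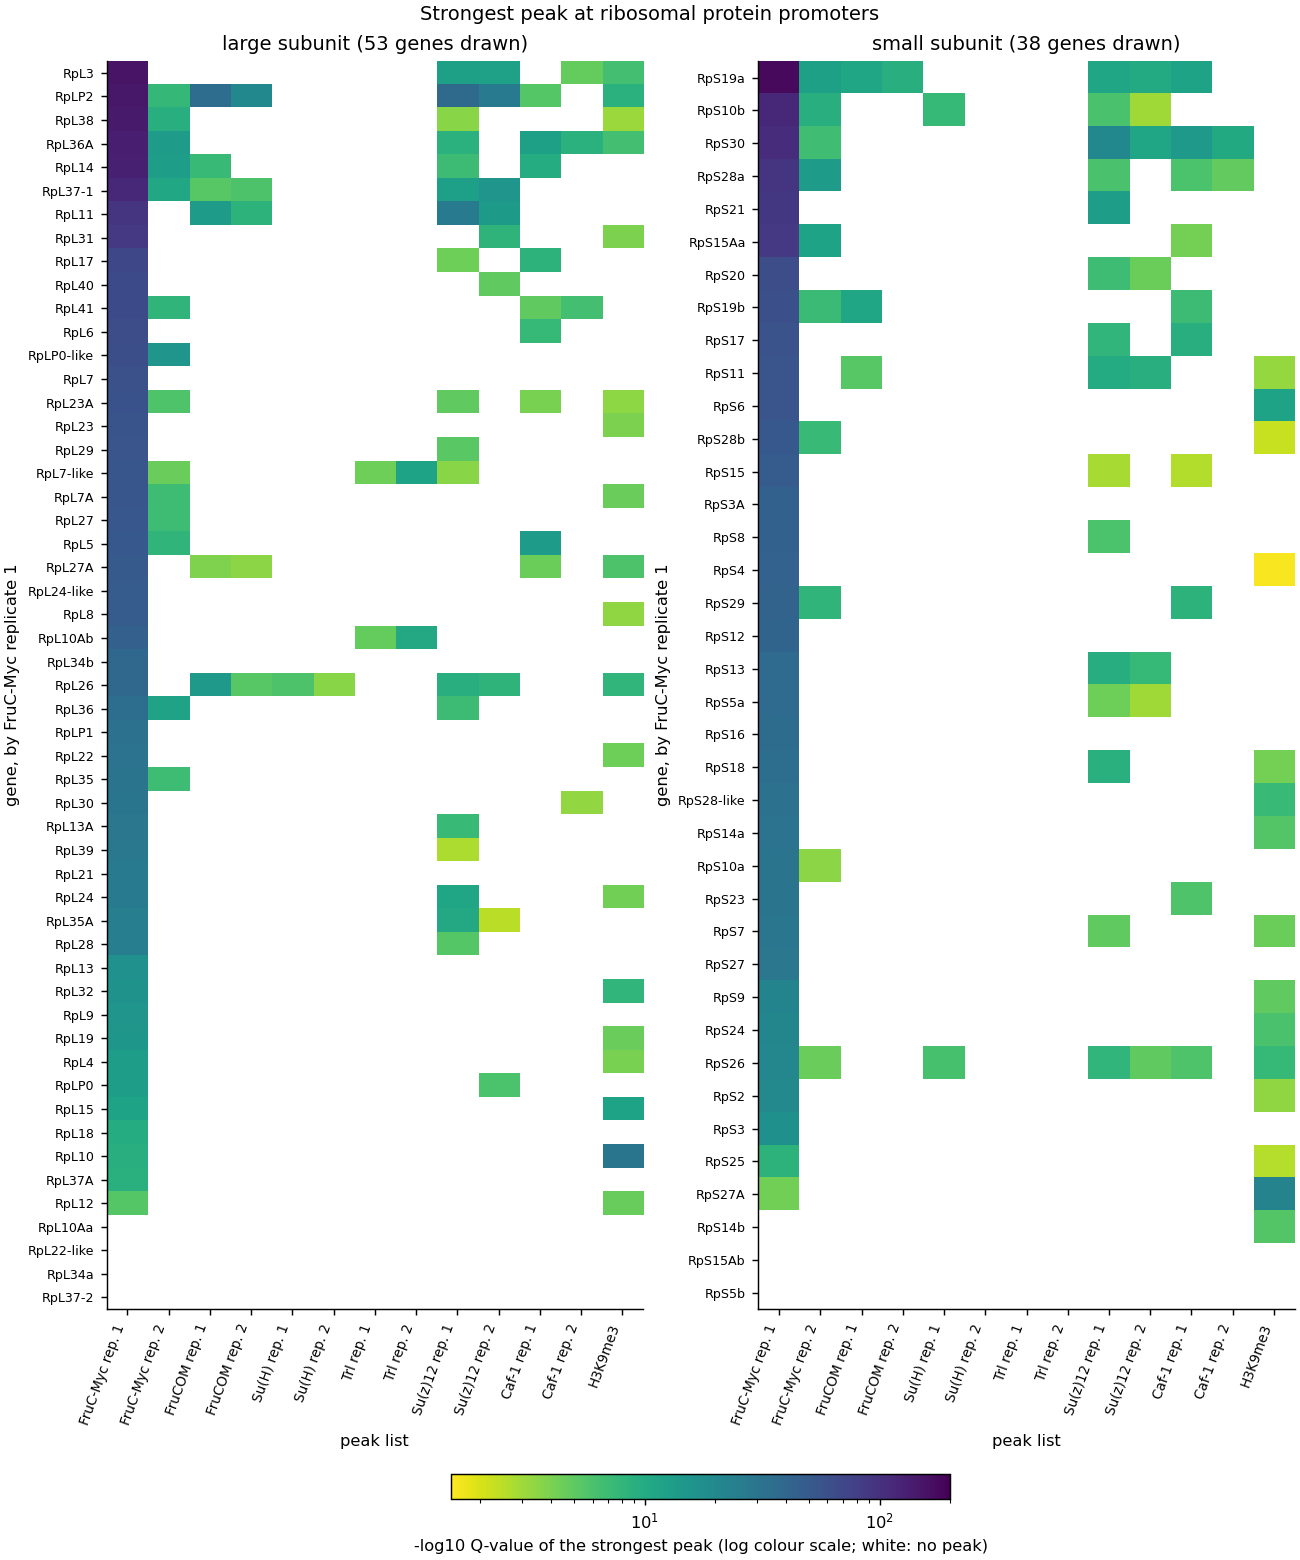
−log10 Q-value (colour, log scale) of the strongest peak at the promoters drawn of the large subunit (left) and small subunit (right) in each peak list (columns), genes ordered by FruC-Myc replicate 1; white cells have no peak. The FruC-Myc replicate 1 column is filled in all but the lowest rows, Su(z)12 and Caf-1 peaks gather towards the upper rows, and H3K9me3 peaks are spread over the whole order.

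The large and small subunits were alike in this respect. FruC-Myc peaks were found in replicate 1 at 92.6% of the large-subunit and 92.1% of the small-subunit promoters, and in replicate 2 at 27.8 and 26.3%. Mitochondrial ribosomal protein promoters had a replicate 1 peak in 80.8% of 73 genes, with a median −log10 Q of 27.7, and promoters of translation initiation and elongation factors in 76.9% of 52 genes, with a median of 33.6. A narrower background, added after the data were seen, was promoters with a listed H3K4me3 window. H3K4me3 is a mark of active promoters, and its windows come from the deposited comparison of fruC-null and control brains. Among promoters with such a window, the share in replicate 1 was 95.5% for ribosomal protein genes and 66.3% for the other genes.

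FruC-Myc summits lay just upstream of the start. The strongest replicate 1 summit of the members had a median position of −61 bp, against −62 bp in the other genes, and 54 of 85 lay between −200 and +100 bp (63.5%), against 56.3%. Peaks covered the position 40 bp before the start in 83.7% of the members, against 33.4% of the other genes. Many ribosomal protein genes share this stretch with a neighbour. Another protein-coding start fell in 55 of 92 member promoters (59.8%), against 38.9% of the others. In 26 of 85 members the strongest replicate 1 summit was nearer to that or a further gene's start than to its own. The same count was not made for the other genes, so it is not shown to be particular to the members. In RpS19a the strongest summit was nearest to Rok (−442 bp from the RpS19a start) and in RpL14 to Nelf-E (−92 bp). Among the 37 members whose promoter held no other start, 32 had a FruC-Myc peak in replicate 1 (86.5%), against 34.1% of such promoters of other genes.

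FruCOM, the second antibody to Fru, gave peaks at few of these promoters. It had 9 member peaks in replicate 1 (9.78%, 5.23 to 17.6%), against 10.2% of the other promoters, and 6 in replicate 2 (6.52%), against 6.50%. The share in either replicate was 9.78%, against 11.1%. Among promoters with a listed H3K4me3 window it was 10.1% in members, against 15.3% of the others. Among promoters with a FruC-Myc replicate 1 peak, FruCOM replicate 1 peaks were found at 10.6% of members, against 21.0% of the others. All 9 promoters also had a FruC-Myc peak, with a median replicate 1 value of 93.9. Of the other promoters with FruCOM in replicate 1, 98.6% had one as well, with a median of 76.8. The 6 with FruCOM in both replicates were RpLP2 (35.1 and 20.3), RpL11 (13.5 and 8.45), RpS19a (11.0 and 9.29), RpL26 (14.5 and 5.36), RpL37-1 (5.30 and 5.93) and RpL27A (3.88 and 3.48). The strongest summits of the replicates lay at different sites in RpL37-1 (−359 and −74 bp) and RpL27A (−526 and 15 bp). In RpL26 both FruCOM summits (−478 and −496 bp) lay away from the FruC-Myc summit (−19 bp). RpL11 belongs to the 5S particle that in mammals also restrains the p53 regulator Mdm2. FruCOM had 4201 and 2867 peaks in all, fewer than FruC-Myc, so a promoter without a FruCOM peak is not shown to lack Fru.

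Su(H), the DNA-binding effector of Notch signalling, and Trl had peaks at few members. Su(H) had 3 member peaks in replicate 1 (3.26%), against 0.663% of the other promoters, and 1 in replicate 2 (1.09%), against 0.44%. Either replicate gave 3.26%, against 0.829%. The promoter with both was RpL26 (5.83 and 3.59), and RpS10b (7.49) and RpS26 (6.22) had one in replicate 1 only. Trl had 2 in replicate 1 (2.17%), against 3.19%, and 3 in replicate 2 (3.26%), against 4.25%, with 3.26% in either, against 5.49%. Both replicates had a Trl peak at RpL10Ab (4.77 and 10.5) and at RpL7-like (4.41 and 11.7), each in a promoter that holds 2 other starts.

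Su(z)12, a core subunit of the H3K27 methyltransferase complex PRC2, had peaks at 34 members in replicate 1. They made 37.0% of the 92 (27.8 to 47.2%), against 11.6% of the other promoters. In replicate 2 there were 18 (19.6%, 12.7 to 28.8%), against 7.83%. The share in either replicate was 40.2%, against 13.5%, and the share in both, 15 promoters, was 16.3%, against 5.97%. Among promoters with a listed H3K4me3 window the shares were 38.2% in members, against 16.3% of the others, in replicate 1, and 20.2%, against 11.0%, in replicate 2. The peaks themselves were weak, with a median −log10 Q of 7.68 in replicate 1, against 7.97 in the other genes, and none of the members reached 100.

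The highest Su(z)12 values were those of RpLP2 (36.7 in replicate 1 and 27.2 in replicate 2), followed, among the promoters with both replicates, by RpL11 (26.7 and 13.9), RpS30 (20.3 and 11.3), RpL37-1 (12.7 and 15.6) and RpL3 (12.3 and 12.2). RpS21 (13.1) had a peak in replicate 1 only. All 34 promoters with a replicate 1 Su(z)12 peak also had a FruC-Myc peak, as did 98.6% of the 1609 other promoters with Su(z)12. The 9 members above 100 in FruC-Myc all had Su(z)12 in replicate 1, and in the other genes above 100 the share was 80.7%. Members with Su(z)12 had a median FruC-Myc value of 56.4, and members with FruC-Myc but no Su(z)12 had 31.5. In the other genes the same medians were 73.8 and 23.2.

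Caf-1, a histone chaperone subunit shared by PRC2 and other complexes, gave 20 member peaks in replicate 1 (21.7%, 14.5 to 31.2%), against 9.07% of the other promoters. In replicate 2 it gave 6 (6.52%), against 5.17%, and the share in either replicate was 23.9%, against 10.3%. The difference of replicate 1 was thus not present at the same size in replicate 2. Among promoters with an H3K4me3 window, the replicate 1 share was 22.5% in members, against 12.8%. Peaks in both replicates were found at 4 members (4.35%), against 3.91% of the other promoters, namely RpS30 (14.4 and 10.2), RpL36A (12.4 and 8.77), RpS28a (5.97 and 4.87) and RpL41 (4.98 and 6.48), the gene of the smallest ribosomal protein. Of the 34 Su(z)12 promoters, 12 also had Caf-1 in replicate 1 (35.3%), against 49.0% in the other genes.

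**Figure D4:**
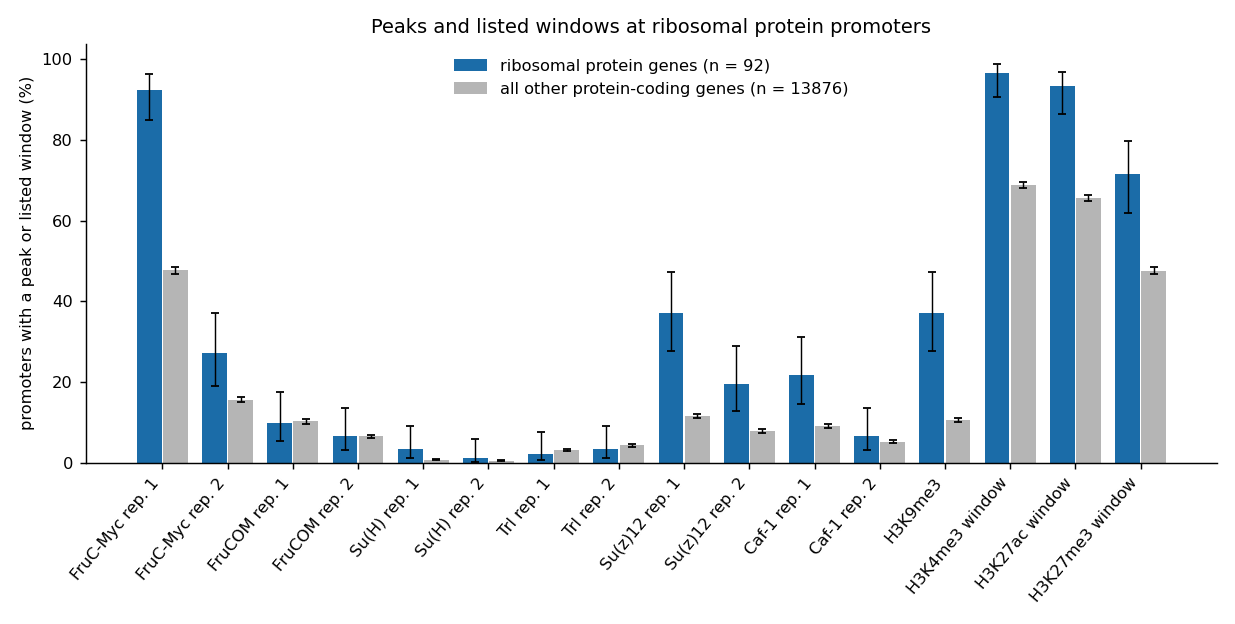
Share of promoters (y axis, percent) with a peak in each list or with a listed histone-mark window (x axis) in 92 ribosomal protein genes (blue) and 13876 other protein-coding genes (grey), with 95% Wilson intervals. FruC-Myc replicate 1, Su(z)12, H3K9me3 and the 3 histone-mark columns are higher in the ribosomal protein genes, and the FruCOM and Trl intervals include the grey bars.

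Peaks of H3K9me3, a mark best known from heterochromatin, were found at 34 of the 92 promoters (37.0%, 27.8 to 47.2%), against 10.5% of the other promoters, in a single list for both control samples. Replicates therefore could not be compared for this mark. Among promoters with an H3K4me3 window the share was 38.2% in members, against 12.6%. The peaks were weak, with a median −log10 Q of 4.66, against 6.36 in the others, and a median fold enrichment of 3.24, against 3.62. A value of 10 was passed by 4 members (4.35%), against 3.15% of the other promoters. These were RpL10 (30.1), RpS27A (22.4), RpL15 (11.6) and RpS6 (11.6). No promoter of a member or of another gene passed 100. RpL10 helps complete the large subunit, and RpS27A is made as a fusion to ubiquitin.

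Most of these H3K9me3 peaks had their summit within the gene. In 25 of the 34 members the strongest summit lay more than 200 bp downstream of the start, between 286 and 688 bp, in the body of the ribosomal protein gene. That was 27.2% of all members, against 3.82% of all other genes. The summit lay inside the promoter as defined here in 24 of 92 members (26.1%), against 8.67% of the other genes. None of the 34 summits lay between −200 and +100 bp, against 12.0% of the summits in other genes. The cover of H3K9me3 peaks was 23.9% of the members at 500 bp downstream and 0 at the start, whereas in the other genes it was at most 4.14%. The downstream peaks had a median −log10 Q of 4.58, from 1.58 at RpS4 to 11.6 at RpS6, and included RpL32 (8.01), RpL26 (7.93), RpS26 (7.57) and RpL36A (6.42). In the other 9 the summit lay upstream, at −1008 bp in RpL10, −827 bp in RpL15 and −1648 bp in RpS27A, and at −796 bp in RpS14b, where it was the downstream peak of its tandem copy RpS14a (5.59). Of the members known from pericentric heterochromatin, RpL15 (11.6) and RpL38 (3.16) had a peak and RpL5 had none. Ribosomal protein genes were shorter, with a median length of 1315 bp, against 2178 bp. In the 25 members with a downstream H3K9me3 summit, the strongest FruC-Myc summit lay at a different position. This did not hold for all upstream ones, since in RpS28b the FruC-Myc replicate 1 summit (−904 bp) and the H3K9me3 summit (−908 bp) nearly coincided. The median FruC-Myc value was 32.5 in members with H3K9me3 and 44.2 in members with FruC-Myc but no H3K9me3.

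**Figure D5:**
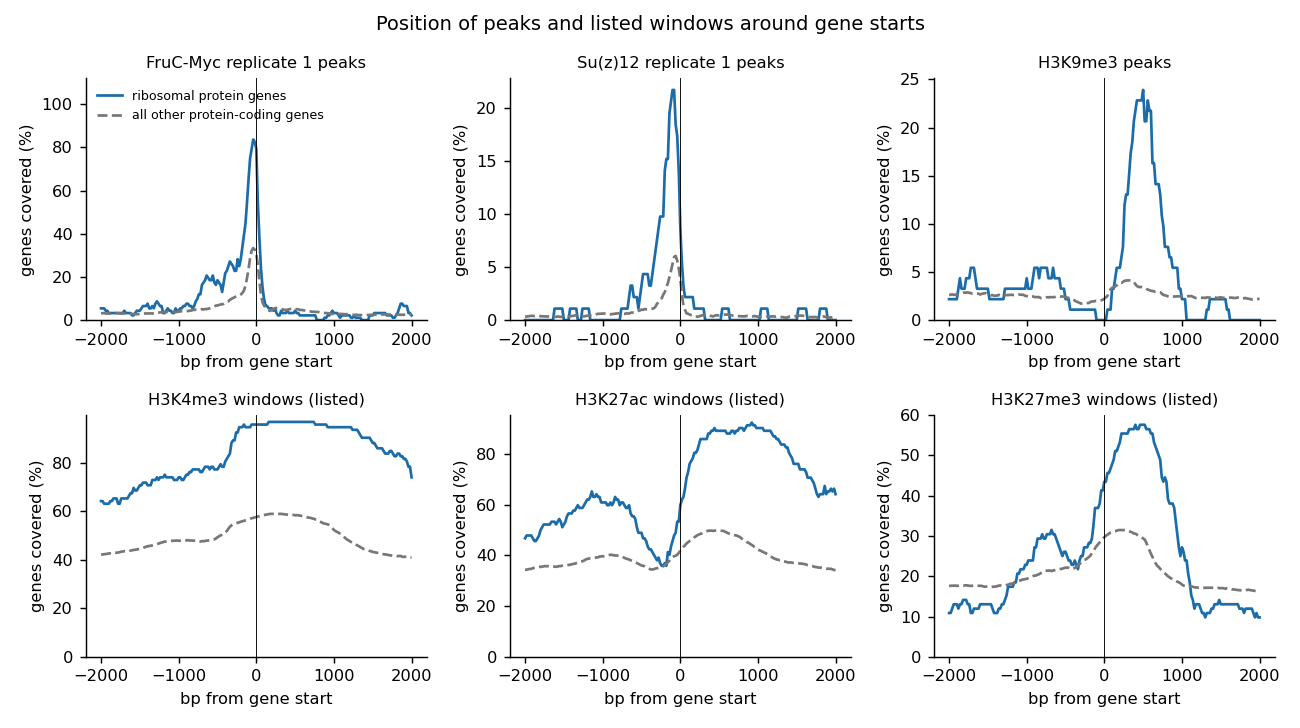
Share of genes (y axis, percent, a separate scale in each panel) covered by a peak or listed window at each distance from the gene start (x axis, bp), in 92 ribosomal protein genes (solid blue) and 13876 other protein-coding genes (dashed grey). FruC-Myc cover reaches 83.7% at 40 bp before the start and H3K9me3 cover 23.9% at 500 bp behind it in the ribosomal protein genes.

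For the 3 other histone marks the deposited tables list windows of a fruC-null against control scan. The paper describes that scan as a search for regions where the level of a mark changed between these genotypes. A listed window is therefore a place reported by this comparison and not a measure of how much of the mark was present. Only the positions of these windows were used, since levels per sample were not analysed here, and a promoter without a listed window is not shown to lack the mark. H3K4me3, the mark of active promoters, had a window at 89 of 92 members (96.7%, 90.8 to 98.9%), against 68.8% of the other promoters. The 3 exceptions were minor paralogs, RpL10Aa, RpL22-like and RpL37-2. The windows covered the whole promoter in 60 members (67.4% of 89), against 44.7% of the other promoters with a window. H3K27ac, the acetylation of active promoters and enhancers, had a window at 86 members (93.5%, 86.5 to 97.0%), against 65.7%. The 6 members without one were these 3 paralogs together with RpS5b, RpL15 and RpS5a. RpL10Aa, RpL22-like and RpL37-2 therefore had no listed window of either active mark and no factor peak. H3K4me3 windows were listed at 6 of 7 neuroblast genes (all but pnt), 4 of 4 neuron genes and the glial gene repo, and H3K27ac windows at 7 of 7, 2 of 4 and repo. Since most promoters have such a window, these counts do not check the tissue.

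H3K27ac windows dipped just before the start and were most frequent within the gene. Their cover of the members was lowest at −240 bp, at 35.9%. They covered 59.8% of the members at the start and 92.4% at 920 bp downstream, against 41.8% of the other genes at the start and at most 49.8%, at 500 bp downstream. H3K27me3, the product of PRC2, had a listed window at 66 members (71.7%, 61.8 to 79.9%), against 47.5% of the other promoters and 54.9% of those with an H3K4me3 window, where the members stood at 71.9%. These windows covered a median of 688 bp of the promoter, against 750 bp, and the whole promoter in 4 of the 66 members (6.06%; RpL13A, RpL22, RpL32 and RpS30), against 9.57% of the other promoters with a window. Their cover was highest at 400 bp downstream, where 57.6% of the members were covered, against at most 31.5% of the other genes. Of the 34 members with a replicate 1 Su(z)12 peak, 26 had an H3K27me3 window (76.5%), and of the 58 without one 40 had it (69.0%), whereas in the other genes the shares were 75.5 and 43.9%. All 3 marks had a window at 67.4% of the members, against 33.5% of the other genes. Mitochondrial ribosomal protein genes had an H3K4me3 window at 100.0%, an H3K27ac window at 97.3% and an H3K27me3 window at 57.5%. In translation factor genes these shares were 86.5, 84.6 and 63.5%.

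The members with the most signals were RpLP2, RpS19a, RpL26 and RpS26. RpLP2 had peaks of FruC-Myc, FruCOM and Su(z)12 in both replicates, Caf-1 in replicate 1 (5.43) and H3K9me3 (8.74, 339 bp downstream). RpL26, whose human counterpart also binds p53 mRNA, had FruC-Myc in replicate 1 only (38.1), but FruCOM, Su(H) and Su(z)12 (9.25 and 8.37) in both replicates, and H3K9me3 (7.93). The peaks of RpL26 did not share a site. FruC-Myc had its summit at −19 bp, whereas FruCOM (−478 and −496 bp) and Su(z)12 (−507 and −500 bp) lay further upstream. This promoter also holds the start of CG3902. RpS26, which contacts mRNA at the exit channel, had weak peaks of FruC-Myc (20.8 and 4.58), Su(H), Su(z)12 (7.97 and 4.92), Caf-1 (5.80) and H3K9me3. At the other end, 7 members had no peak of any factor, the same 7 that lacked FruC-Myc, against 51.8% of the other genes.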

How the data were processed

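The authors profiled brat-null larval brains by CUT&RUN, with 50 brains for each factor sample and 25 for each histone sample. Per the labels and the study's methods, reads were trimmed with cutadapt and aligned to BDGP6 (dm6) with Bowtie2, fragments under 120 bp were kept for factors, and MACS2 called peaks on each replicate. Whether H3K9me3 replicates were pooled before calling is not given in the sources used here. The deposited peak lists hold, as MACS2 wrote them, a score, the fold enrichment (a ratio to local background), the −log10 P-value and the −log10 Q-value, and the summit. The Q-value, fold and summit were used. Peak lists carry no read counts, so depth is unknown, and the peaks called depend on it. The 3 deposited histone tables hold windows of a diffReps scan (500 bp sliding window) with fold changes and p-values of the authors' own comparison of fruC-null and control brains. These were not used, so the planned levels in fruC-null over control were not computed. Window positions and lengths are other values, in bp.

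Gene starts are the 5′ ends of gene records of Ensembl release 115 (BDGP6), on chromosomes of the same coordinates. A promoter was counted when a peak or window overlapped it by at least 1 bp, and its strongest peak by Q-value was used. Samples were grouped by label, and each replicate was counted separately. Shares carry 95% Wilson intervals. No significance test was run, since the lists have no levels and the members are 1 set of genes. The overlap code was tested on simulated data (planted peaks). Words were searched in the RefSeq copy of the release 6 genome. Members were named by a rule: those over −log10 Q of 100, the 5 highest in each FruC-Myc replicate, those without FruC-Myc, those with another factor in both replicates (the 5 highest at most), those without an active-mark window, and the minor and assembly factor paralogs. Others were named after their values were seen. Genes that the rule reached but that are not named, in the text or the plot of all peak lists, are not reported here singly and are counted in every total. The members and lists were chosen with earlier results of these data known. Alternatives were other start sites, promoter widths, overlaps and Q thresholds, single replicates, and promoters without another start. Python 3.11.15, numpy 2.4.6, pandas 2.3.3 and matplotlib 3.10.9 were used.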

Additional observations from a re-analysis of the deposited data

How the results depend on the processing

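Of 100 alternative values for 10 shares, 74 were within 1.5 times the share reported, and 26 were not. For the factors, values in brackets are shares of the other genes. The FruC-Myc share of 92.4% was 27.2% (15.5%) without replicate 1 and 92.4% (47.7%) without replicate 2. It was 27.2% (15.5%) in both, 85.9% (41.3%) over a −log10 Q of 10 and 9.78% (4.55%) over 100. The Su(z)12 share of 40.2% was 19.6% (7.83%) without replicate 1, 37.0% (11.6%) without replicate 2 and 16.3% (5.97%) in both. It was 10.9% (4.19%) over a −log10 Q of 10 and 0.0% (0.036%) over 100. The Caf-1 share of 23.9% was 6.52% (5.17%) without replicate 1, 21.7% (9.07%) without replicate 2 and 4.35% (3.91%) in both. It was 4.35% (3.23%) over 10 and 0.0% (0.0144%) over 100. The FruCOM share of 9.78% was 5.43% (4.4%) over 10 and 0.0% (0.0288%) over 100. It was 6.52% (6.5%) without replicate 1 and 9.78% (10.2%) without replicate 2. The Su(H) share of 3.26% was 1.09% (0.44%) without replicate 1, 3.26% (0.663%) without replicate 2 and 1.09% (0.274%) in both. It was 5.41% (0.884%) in promoters without another start, 0.0% (0.13%) over 10 and 0.0% (0.00721%) over 100. The Trl share of 3.26% was 3.26% (4.25%) without replicate 1, 2.17% (3.19%) without replicate 2 and 2.17% (1.95%) in both. It was 2.17% (0.915%) over 10 and 0.0% (0.0%) over 100. The promoter of 500 bp either side gave 1.09% (4.76%), and promoters without another start gave 0.0% (5.26%). H3K9me3 (37.0%) gave 13.0% with the promoter ending 100 bp downstream, against 8.43% of the other genes, most of its summits lying beyond that end, and 0.0% when only peaks over 100, merged within 3000 bp, counted. The FruC-Myc share was above that of the other genes in 12 of 12 alternatives, that of Su(z)12 in 11 of 12, of Caf-1 in 11 of 12 and of H3K9me3 in 7 of 8, the exceptions being thresholds of 100 that no member passed. Su(H) was above the others in 10 of 12, with no member over 10 or 100, FruCOM in 4 of 12 and Trl in 2 of 12. The 3 histone-mark shares changed by less than 1.5 times in 20 of 20 alternatives. Leaving out the paralogs and restricting to promoters with an H3K4me3 window were chosen after seeing the data. The alternatives for levels in fruC-null over control were not run. No paired analysis was possible because no result comes from a test between groups. Depth is unknown, so a promoter without a peak is not shown to lack the protein.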
